A study of Mus musculus with 4 samples.

Results

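The genes described here build the actin cytoskeleton, or are known targets or partners of SRF and YAP, transcriptional regulators that respond to it. They are 40 mouse genes given as a list, selected on the 96 h ratios of silenced to control cells of these arrays as well as on their known roles, so their 96 h values are a description and not a test. Probes were matched to the list by RefSeq accession. Of the 40 genes 36 had a probe, 54 probes in all, and 35 were tested, out of 21759 genes or transcripts tested on the arrays. Myl9, Crim1, Tgfb1i1 and Tes had no matching probe, and Ankrd1 was not well above background in any group.

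RNA of D3 mouse embryonic stem cells was hybridised to 4 Agilent whole mouse genome arrays of 2 colours, with 2 arrays for the 24 h time point and 2 for 96 h. The cells were differentiating as embryoid bodies in serum medium without LIF, which otherwise holds such cells in the pluripotent state. Each array set RNA labelled siNTE, from cells given siRNA against Pnpla6 (the gene of neuropathy target esterase, a phospholipase) and here called silenced cells, against RNA of control cells of the same time. What was given to the control cells is not stated in the labels. So there were 4 RNA groups, control and silenced cells at 24 h and at 96 h, each with 2 channels, 1 in each dye, and the control cells were in Cy5 on replicate 1 of each time. No label says that replicates were separate cultures, so p-values measure at most how these samples varied, which may be technical. The number of arrays limits the precision. For the ratios, the spread used is mostly shared over all genes, after a term removes differences between replicate 1 and replicate 2.

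Actin filaments are built from globular actin monomers, bundled by myosin II and stabilised by tropomyosins, and anchored at focal adhesions by proteins such as zyxin and vinculin. Monomeric actin holds the coactivators MRTF-A and MRTF-B in the cytoplasm. When actin polymerises they enter the nucleus and act with SRF at the CArG box, a sequence found before many actin and smooth muscle genes. YAP (Yap1) and TAZ (Wwtr1) respond to tension and adhesion as well as to the Hippo kinases, and bind DNA through the TEAD factors, with Ccn1 and Ccn2 as their most used reporter genes. Many of these genes are strongly expressed in spreading and contractile cells such as fibroblasts and smooth muscle.

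Between 62.5% and 68.7% of spots in a channel were well above background, and no spot was saturated. Pnpla6 itself checked the labels. At 24 h the 2 arrays gave Pnpla6 log2 ratios, silenced over control, of −0.73 and −1.002, a mean of −0.87 (SE 0.062, n = 2 arrays, limma adjusted p = 8.6e-12), which left 54.9% of the control level. At 96 h the Pnpla6 ratios were 0.12 and −0.11, a mean of 0.01. Replicate 2 of 96 h was on a slide of its own, and the other 3 arrays shared a slide. The arrays of each time differed in Pou5f1, the pluripotency factor Oct4, whose ratio was 1.58 on replicate 1 and −0.21 on replicate 2 at 24 h, and 0.01 and −2.11 at 96 h. Values below are therefore given for each array.

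At 96 h most of these genes were lower in the silenced cells than in the control cells. The lowest ratio was that of the smooth muscle gene Tagln (−1.25 on the log2 scale, 2.37-fold lower). Next were the YAP target Ccn1 (−0.97), the smooth muscle gene Cnn1 (−0.86) and the YAP target Ccn2 (−0.72). Each is a mean of 2 arrays, which for Tagln read −1.09 and −1.41, with a fitted SE between 0.062 and 0.063. That SE comes mostly from the spread shared over all genes and not from the 2 arrays of a gene. Tagln, Ccn1, Cnn1 and Ccn2 rose between 24 h and 96 h in the control cells, Tagln by 2.55 on the log2 scale. They rose by less in the silenced cells. Both changes use the 96 h channels that gave the ratios, so the smaller rise largely restates the low ratio and is no separate result. At 24 h, when Pnpla6 was low, no gene of the list passed the limma test of silenced against control cells. In whole cultures, fewer cells of a type and less RNA per cell cannot be told apart.

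**Figure D1:**
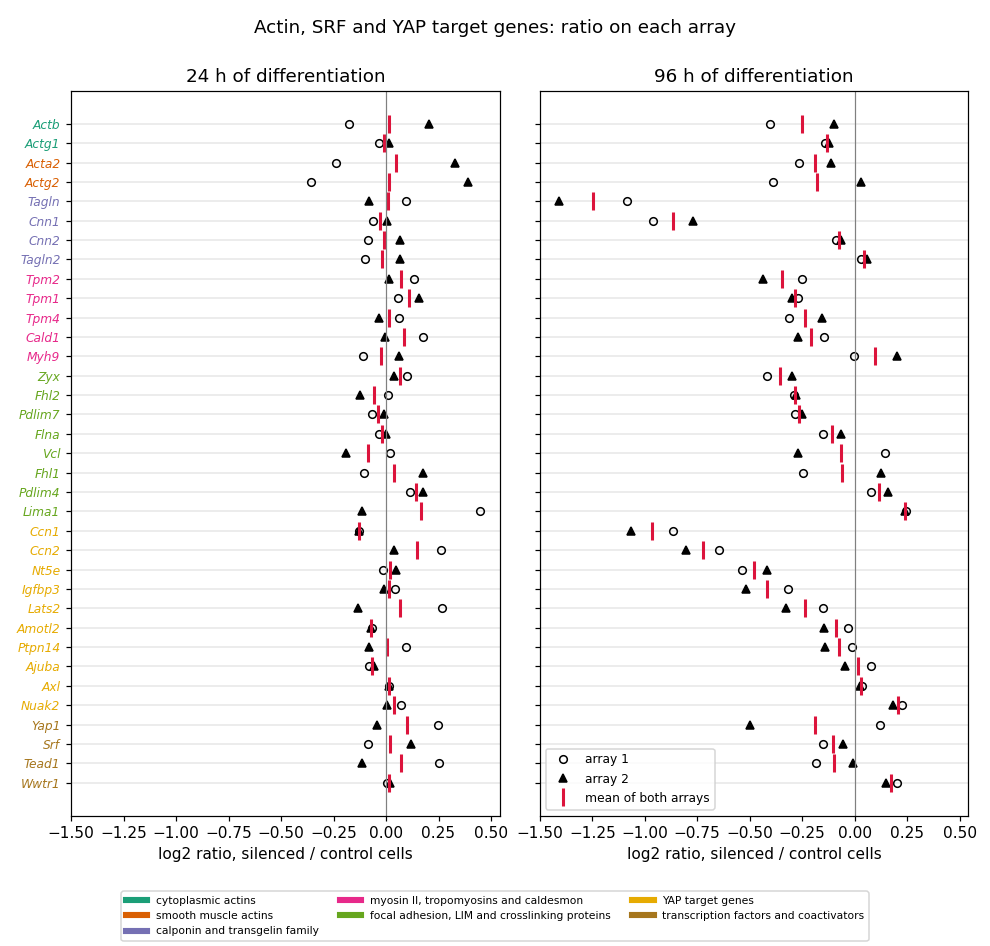
Log2 ratio of silenced to control cells (x axis) for each of the 35 tested genes (y axis, coloured by role) at 24 h and at 96 h; circles and triangles are the 2 arrays of a time and the red bar is their mean. At 24 h all means lie between −0.13 and 0.17, while at 96 h Tagln, Ccn1, Cnn1 and Ccn2 lie farthest left, with means from −1.25 to −0.72.

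The 250 bases before the transcription start were taken from RefSeq (GRCm38.p6), which gave 38 promoters of 33 of the 40 genes; Tagln and Ccn2 were among those with no entry. They are shown for Ccn1 and Cnn1, with low 96 h ratios, for Acta2 and Tpm1, and for Cnn2, Actg1 and Srf, whose windows hold a CArG box. Capitals mark the CArG box (CC, exactly 6 A or T bases, then GG, which reads the same in form on both strands) or the core of the TEAD motif, GGAATG, with CATTCC as its form on the other strand. As searched, no window shown holds both motifs, so they do not overlap there. The windows are Ccn1 chr3:145649986-145650235 (minus strand), Cnn1 chr9:22099003-22099252 (plus), Acta2 chr19:34255374-34255623 (minus), Tpm1 chr9:67049214-67049463 (minus), Cnn2 chr10:79988350-79988599 (plus), Actg1 chr11:120348496-120348745 (minus) and Srf chr17:46556163-46556412 (minus), each read 5′ to 3′ towards the gene.
Ccn1: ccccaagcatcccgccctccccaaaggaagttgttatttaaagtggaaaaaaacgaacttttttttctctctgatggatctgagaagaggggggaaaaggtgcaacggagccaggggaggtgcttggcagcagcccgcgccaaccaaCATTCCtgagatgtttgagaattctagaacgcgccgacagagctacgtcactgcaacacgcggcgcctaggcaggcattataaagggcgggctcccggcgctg
Cnn1: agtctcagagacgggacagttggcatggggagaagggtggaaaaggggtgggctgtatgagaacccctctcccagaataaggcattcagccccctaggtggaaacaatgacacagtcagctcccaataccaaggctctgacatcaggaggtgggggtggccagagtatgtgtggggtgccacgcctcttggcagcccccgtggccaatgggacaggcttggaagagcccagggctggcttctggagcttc
Acta2: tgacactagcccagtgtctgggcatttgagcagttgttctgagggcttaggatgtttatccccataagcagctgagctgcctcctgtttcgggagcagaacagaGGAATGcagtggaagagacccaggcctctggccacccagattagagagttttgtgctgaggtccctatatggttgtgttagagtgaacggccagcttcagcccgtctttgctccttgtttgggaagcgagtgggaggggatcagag
Tpm1: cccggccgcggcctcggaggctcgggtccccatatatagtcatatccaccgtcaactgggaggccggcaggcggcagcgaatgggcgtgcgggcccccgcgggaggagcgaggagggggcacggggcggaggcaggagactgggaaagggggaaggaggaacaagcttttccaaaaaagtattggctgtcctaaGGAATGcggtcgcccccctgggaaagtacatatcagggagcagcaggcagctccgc
Cnn2: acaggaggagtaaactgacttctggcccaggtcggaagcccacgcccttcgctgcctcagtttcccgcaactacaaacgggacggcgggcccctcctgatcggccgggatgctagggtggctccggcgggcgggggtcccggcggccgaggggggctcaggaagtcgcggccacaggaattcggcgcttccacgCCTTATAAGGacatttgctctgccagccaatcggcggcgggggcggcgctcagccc
Actg1: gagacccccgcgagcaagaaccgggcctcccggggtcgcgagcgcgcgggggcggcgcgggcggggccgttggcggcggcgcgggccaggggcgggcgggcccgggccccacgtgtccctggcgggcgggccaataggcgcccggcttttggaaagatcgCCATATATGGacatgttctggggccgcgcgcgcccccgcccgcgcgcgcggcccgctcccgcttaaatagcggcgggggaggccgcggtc
Srf: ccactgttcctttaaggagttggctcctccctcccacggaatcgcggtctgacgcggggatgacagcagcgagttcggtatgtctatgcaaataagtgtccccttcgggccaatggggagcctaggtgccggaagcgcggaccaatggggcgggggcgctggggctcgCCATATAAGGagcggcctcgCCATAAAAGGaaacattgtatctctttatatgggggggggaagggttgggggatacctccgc

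The TEAD core began 103 bases before the start of Ccn1, 146 before that of Acta2 and 56 before that of Tpm1. The CArG box began 56 bases before the start of Cnn2 and 90 before that of Actg1, and Srf held one at 82 and another at 62 bases. The Cnn1 window held neither motif as searched. A CArG box was in 9 of the 38 promoters of these genes (23.7%) and in 482 of 32851 RefSeq promoters of the same length (1.47%). GGAATG or CATTCC was in 16 of 38 (42.1%) and in 12.6% of all. The genes were listed partly as known targets of SRF and YAP, so no result is read from these shares. Besides Cnn2, Actg1 and Srf, the genes with a CArG box were Myl9, Vcl, Lima1, Fhl1 and Fhl2. The 7 tested genes with a CArG box in these windows had 96 h log2 ratios from −0.28 to 0.24 with a median of −0.08. The 22 with a window but no such box ran from −0.97 to 0.17 with a median of −0.20. Both groups come from a list selected on these ratios, and Tagln and Ccn2, with no window, are in neither. A match is a description of these letters and not a bound site, and known elements farther away or of looser sequence lie outside this search.

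In the count at 96 h, 2 genes were higher and 16 lower in the silenced cells at a limma adjusted p under 0.05, and 17 did not pass, against 13.5% of all genes tested (6.68% higher and 6.86% lower). The ratio was below 0 on both arrays for 23 of the 35 and above 0 on both for 6, against 25.5% and 25.8% of all genes. The median of the 35 log2 ratios was −0.18, and that of all genes 0.00. Nothing is read from these shares, since the list was drawn up on this comparison. The term for dye orientation, which is also the replicate number, was absent from ratio fits that left an array out. Without it, all 4 arrays gave a count of 4 (Tagln, Ccn1, Cnn1 and Ccn2). With the authors' own log ratios the count was 0, with 16 at an unadjusted p under 0.05. Without 96 h replicate 1 it was 2 (Ccn1 and Tagln) and without 96 h replicate 2 it was 2 (Cnn1 and Tagln).

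Between 24 h and 96 h in the control cells, 18 of the 35 genes rose and 7 fell in limma's single-channel fit (adjusted p under 0.05), against 36.2% of all genes (19.4% higher and 16.8% lower). In the silenced cells 18 rose and 9 fell, against 37.2% (19.6% and 17.6%). Both 96 h channels lay above both 24 h channels for 21 genes and below for 11 in the control cells, where 37.0% and 36.2% of all genes did so. In the silenced cells the numbers were 19 above and 12 below, with 35.9% of all genes each way. The median change of the 35 genes was 0.46 on the log2 scale in the control cells and 0.29 in the silenced cells, and that of all genes was 0.00 and −0.01. These comparisons use the same 96 h channels as the 96 h ratio, on which the list was drawn up. The time-course shares and p-values of these genes are therefore a description, set side by side. No difference between the time courses was tested.

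**Figure D2:**
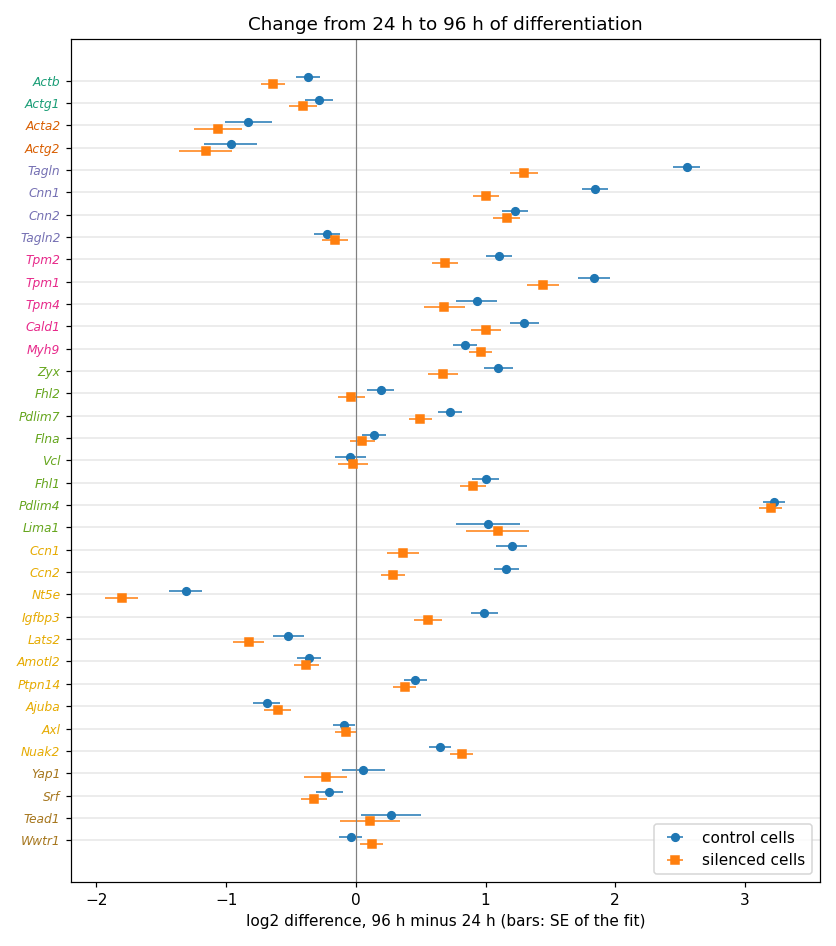
Log2 difference between 96 h and 24 h (x axis) for each tested gene (y axis) in control cells (circles) and silenced cells (squares), with bars for the SE of the single-channel fit. Pdlim4 is farthest right in both, at 3.23 and 3.20, while the square of Tagln lies left of its circle, at 1.29 against 2.55.

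The cytoplasmic actins Actb (beta-actin) and Actg1 (gamma-actin) had 96 h ratios below 0 on each array on the tested probes. Normalized log2 signals of Actb were 10.45 and 10.26 in control and 10.27 and 10.46 in silenced cells at 24 h, and 10.11 and 9.86 in control and 9.71 and 9.76 in silenced cells at 96 h. The groups overlapped at 24 h, and at 96 h both silenced channels lay below both control channels, with ratios of −0.40 and −0.10 on the 2 arrays and a mean of −0.25. Actb fell with time by 0.37 in control cells (limma adjusted p = 0.017) and by 0.64 in silenced cells (adjusted p = 0.0015). For Actg1 the signals at 24 h were 15.21 and 15.37 in control and 15.17 and 15.39 in silenced cells, and at 96 h 14.93 and 15.08 against 14.79 and 14.95. The 96 h groups of Actg1 overlapped as channels, since replicate 2 was the brighter in both, but the ratio was below 0 on both arrays (−0.14 and −0.12). The second Actg1 probe gave 0.02 and −0.25. Its change with time was −0.28 in control cells, which did not pass (limma adjusted p = 0.073), and a fall by 0.41 in silenced cells (adjusted p = 0.020). The control change of Actg1 passed with a replicate block added or an intraspot correlation from mean squares (−0.28 in each), without 24 h replicate 1 (−0.38) and without 96 h replicate 2 (−0.36). The signal of the Actb probe, for a gene long used as a reference, was not constant with time in these cultures.

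Of the smooth muscle actins, Acta2 (alpha smooth muscle actin) gave values that turned on the probe. On the brighter Acta2 probe, which was tested, control cells read 13.14 and 12.90 and silenced cells 12.90 and 13.22 at 24 h, and at 96 h 12.24 and 12.14 against 11.97 and 12.03. These signals fell by 0.83 with time in control cells (limma adjusted p = 0.010) and by 1.06 in silenced cells (adjusted p = 0.0034). The dimmer Acta2 probe moved the other way, from 6.50 and 6.41 in control and 6.51 and 6.38 in silenced cells at 24 h to 7.69 and 7.58 in control and 7.07 and 6.93 in silenced cells at 96 h. On that probe no 96 h control channel overlapped a silenced one, the 96 h ratios were −0.62 and −0.65 (mean −0.64), and the change in control cells was 1.18. On the brighter probe the 96 h ratios were −0.27 and −0.11 (mean −0.19). Another Acta2 probe was not well above background in any group. Actin genes are near-identical in coding sequence, and how far each probe reads its relatives was not tested, since probe sequences were not used here. Neither direction of Acta2 is therefore certain. The same limit holds for the probes of Actb, Actg1 and Actg2.

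Actg2, the enteric relative of Acta2, had 1 probe. Its signals were 11.08 and 11.18 in control and 10.72 and 11.57 in silenced cells at 24 h, and 10.20 and 10.13 in control and 9.81 and 10.16 in silenced cells at 96 h. Silenced and control channels overlapped at both times, and all 4 channels at 96 h lay below all 4 at 24 h. Actg2 signals fell with time by 0.97 in control cells (limma adjusted p = 0.0083) and by 1.16 in silenced cells (adjusted p = 0.0036). How far this probe reads other actin genes was not tested.

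The calponin and transgelin family held the lowest 96 h ratio. Tagln (transgelin, or SM22, an actin-binding protein of early smooth muscle) read 8.84 and 8.95 in control and 8.93 and 8.87 in silenced cells at 24 h. At 96 h Tagln read 11.42 and 11.46 in control and 10.33 and 10.06 in silenced cells. The 24 h channels overlapped, and at 96 h both silenced channels were more than 1 log2 unit below both control channels. The array ratios at 96 h were −1.09 and −1.41, and the second Tagln probe gave −1.28 and −1.49. Tagln rose with time 5.86-fold in control cells (2.55, SE 0.11, limma adjusted p = 8.3e-06) and 2.45-fold in silenced cells (1.29, adjusted p = 0.00012).

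Cnn1 (calponin 1, which binds actin and slows myosin in smooth muscle) showed the same order of groups. Its signals were 7.87 and 7.91 in control and 7.81 and 7.92 in silenced cells at 24 h, and 9.81 and 9.66 in control against 8.85 and 8.89 in silenced cells at 96 h. The groups overlapped at 24 h and stood apart at 96 h, where the ratios were −0.96 and −0.77. Cnn1 rose 3.58-fold with time in control cells (1.84, SE 0.10, limma adjusted p = 2.2e-05) and 2.01-fold in silenced cells (1.01, adjusted p = 0.00026).

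The other 2 genes of the family differed from these. Cnn2 (calponin 2, found in many non-muscle cells) read 9.86 and 9.83 in control and 9.77 and 9.90 in silenced cells at 24 h, and 11.13 and 11.02 against 11.04 and 10.96 at 96 h. Silenced and control channels of Cnn2 overlapped at both times, with 96 h ratios of −0.09 and −0.06. Cnn2 rose by 1.23 in control (limma adjusted p = 0.00012) and by 1.16 in silenced cells (adjusted p = 0.00015). Tagln2, the non-muscle transgelin, had changes of −0.22 and −0.16 that did not pass, and a 96 h ratio of 0.04.

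**Figure D3:**
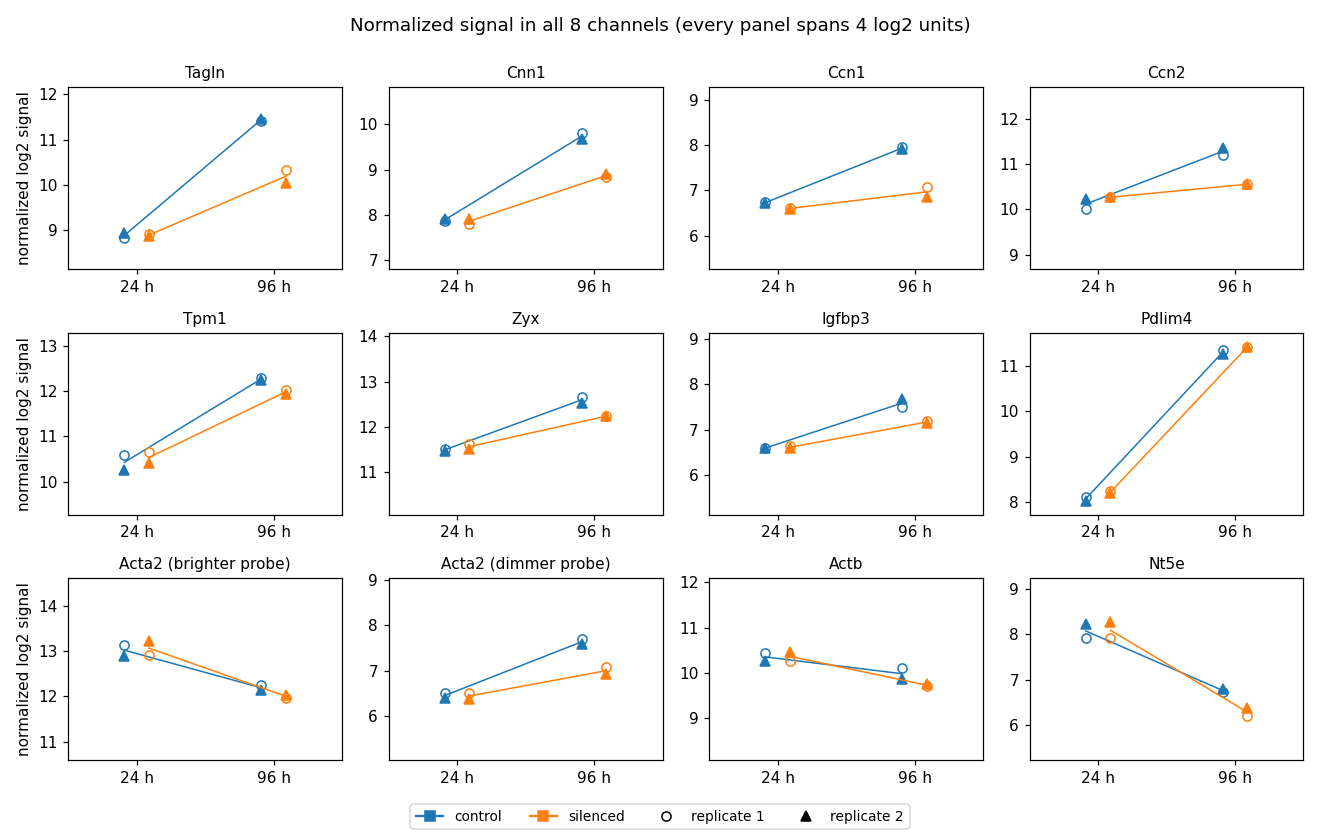
Normalized log2 signal (y axis) at 24 h and 96 h (x axis) in all 8 channels for 11 genes, Acta2 with both probes; blue is control, orange silenced, circles and triangles are replicates 1 and 2, and lines join the means of the 2 channels. The channels of Tagln and Cnn1 overlap at 24 h and are apart at 96 h, where those of Ccn1 and Ccn2 are apart too, Pdlim4 climbs in both cultures, and the 2 Acta2 probes run in opposite directions.

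The tropomyosins Tpm1, Tpm2 and Tpm4 wind along actin filaments, and caldesmon (Cald1) ties them to myosin. On the tested probes all 4 rose with time in both cultures and were lower in silenced cells at 96 h. Tpm1 read 10.59 and 10.27 in control and 10.65 and 10.43 in silenced cells at 24 h, and 12.29 and 12.24 in control against 12.02 and 11.94 in silenced cells at 96 h. Its 24 h groups overlapped and its 96 h groups did not. The Tpm1 ratios were 0.06 and 0.16 at 24 h and −0.27 and −0.30 at 96 h, with a second probe at a mean of −0.45 at 96 h, and Tpm1 rose by 1.84 in control (limma adjusted p = 4.6e-05) and by 1.45 in silenced cells (adjusted p = 0.00014). Tpm2 read 9.63 and 9.89 in control and 9.77 and 9.90 in silenced cells at 24 h, and 10.83 and 10.90 against 10.58 and 10.46 at 96 h. The Tpm2 groups were apart only at 96 h (ratios −0.25 and −0.44), and the gene rose by 1.1 in control (limma adjusted p = 0.00018) and by 0.69 in silenced cells (adjusted p = 0.0016).

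Tpm4 read 12.04 and 11.76 in control and 12.10 and 11.73 in silenced cells at 24 h, and 12.88 and 12.78 against 12.57 and 12.63 at 96 h. The 96 h groups of Tpm4 did not overlap (ratios −0.31 and −0.16), and it rose by 0.93 in control (limma adjusted p = 0.0031) and by 0.68 in silenced cells (adjusted p = 0.012). Cald1 read 7.55 and 7.38 in control and 7.72 and 7.38 in silenced cells at 24 h, and 8.68 and 8.85 against 8.53 and 8.58 at 96 h. Its 96 h ratios were −0.15 and −0.27 on the tested probe, and −0.45 and 0.23 on a second probe. Cald1 rose by 1.30 in control (limma adjusted p = 0.00015) and by 1.00 in silenced cells (adjusted p = 0.00048).

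Myh9 is the heavy chain of non-muscle myosin II-A, the motor of stress fibres. Its signals were 13.63 and 13.50 in control and 13.52 and 13.56 in silenced cells at 24 h, and 14.52 and 14.30 against 14.51 and 14.50 at 96 h. Control and silenced channels of Myh9 overlapped at both times. Myh9 rose by 0.84 in control (limma adjusted p = 0.00038) and by 0.96 in silenced cells (adjusted p = 0.00021), to 96 h levels that overlapped. The tested probes of its tropomyosin and caldesmon partners read lower in silenced cells at 96 h. The list was selected on that ratio, so no result is read from this contrast.

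Among 8 focal adhesion, LIM and crosslinking genes tested, 5 rose with time in each culture and none fell, where 19.4% of all genes rose and 16.8% fell in control cells and 19.6% and 17.6% did in silenced cells. Zyx (zyxin, a LIM protein of focal adhesions and stress fibres) read 11.52 and 11.48 in control and 11.62 and 11.52 in silenced cells at 24 h, and 12.67 and 12.53 against 12.25 and 12.23 at 96 h. The Zyx groups stood apart at 96 h, with ratios of −0.42 and −0.30. Zyx rose by 1.1 in control (limma adjusted p = 0.00031) and by 0.67 in silenced cells (adjusted p = 0.0031). Pdlim7 (enigma, an actin-associated PDZ and LIM protein) read 8.41 and 8.497 in control and 8.34 and 8.49 in silenced cells at 24 h, and 9.18 and 9.18 against 8.90 and 8.93 at 96 h. Its 96 h groups were apart too, with ratios of −0.28 and −0.25, and Pdlim7 rose by 0.73 in control (limma adjusted p = 0.00071) and by 0.50 in silenced cells (adjusted p = 0.0040).

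Pdlim4 (RIL, another PDZ and LIM protein that binds alpha-actinin) had the largest rise of the list in both cultures. It read 8.12 and 8.03 in control and 8.23 and 8.20 in silenced cells at 24 h, and 11.34 and 11.26 against 11.42 and 11.41 at 96 h. Silenced channels of Pdlim4 were the higher ones at both times, by a mean of 0.14 at 24 h and 0.12 at 96 h, neither of them a call. Pdlim4 rose 9.36-fold in control (3.23, SE 0.087, limma adjusted p = 3.3e-06) and 9.18-fold in silenced cells (3.20, adjusted p = 3.2e-06).

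Lima1 (EPLIN, which crosslinks actin filaments) was 1 of the 2 genes counted as higher at 96 h. It read 11.09 and 11.12 in control and 11.54 and 11.003 in silenced cells at 24 h, and 12.12 and 12.13 against 12.36 and 12.37 at 96 h. The 96 h groups did not overlap and both arrays gave a ratio of 0.24, and the second Lima1 probe gave 0.37 and 0.48. Lima1 rose by 1.02 in control (SE 0.25, limma adjusted p = 0.015) and by 1.09 in silenced cells (adjusted p = 0.011); on Agilent's processed signals the control rise was 0.99 and did not pass. Fhl1 (a LIM protein of muscle) read 10.89 and 10.58 in control and 10.78 and 10.76 in silenced cells at 24 h, and 11.83 and 11.64 against 11.58 and 11.77 at 96 h. Its groups overlapped at both times, and it rose by 1.00 in control (limma adjusted p = 0.00029) and by 0.90 in silenced cells (adjusted p = 0.00046).

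Fhl2, a LIM coactivator that binds SRF, was counted as lower at 96 h, with ratios of −0.29 and −0.28, with changes over time of 0.19 in control and −0.04 in silenced cells that did not pass. Flna (filamin A, the main actin crosslinker) and Vcl (vinculin, which links talin to actin) passed in no comparison on their tested probes. Their 96 h ratios had means of −0.11 and −0.06, and the Vcl arrays had opposite signs (0.14 and −0.27). The Vcl probes differed in the time course. The tested probe changed by −0.04 in control and −0.02 in silenced cells, and a second, dimmer probe by −0.46 and −0.54.

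The YAP targets did not move as one group. Ccn1 (Cyr61, a secreted matrix protein) read 6.75 and 6.72 in control and 6.62 and 6.59 in silenced cells at 24 h, and 7.95 and 7.92 against 7.08 and 6.86 at 96 h. Its silenced channels were the lower ones at both times, with ratios of −0.13 on both arrays at 24 h and of −0.87 and −1.07 at 96 h. Ccn1 rose 2.30-fold in control (1.20, SE 0.12, limma adjusted p = 0.00028) and 1.29-fold in silenced cells (0.36, adjusted p = 0.048), and without 96 h replicate 1 the silenced change was 0.24 and did not pass. The Ccn1 signal is low, and its 96 h ratio was −1.48 on the authors' own log ratios, which add no offset.

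Ccn2 (CTGF, the sister matrix protein) read 10.01 and 10.22 in control and 10.27 and 10.26 in silenced cells at 24 h, and 11.20 and 11.36 against 10.55 and 10.56 at 96 h. Both silenced channels were above both control channels at 24 h, by 0.26 and 0.04 on the 2 arrays, and below them at 96 h, where the ratios were −0.65 and −0.80. Ccn2 rose 2.24-fold in control (1.16, SE 0.095, limma adjusted p = 0.00010) and 1.22-fold in silenced cells (0.29, adjusted p = 0.048). The silenced rise of Ccn2 was not a call with a normexp offset of 16 (0.29) or without 96 h replicate 2 (0.24).

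Igfbp3, a secreted binding protein of insulin-like growth factors, was lower in silenced cells at 96 h as well. It read 6.60 in both control channels at 24 h and 6.64 and 6.59 in silenced cells, then 7.4997 and 7.68 in control against 7.18 and 7.15 in silenced cells at 96 h. The groups overlapped at 24 h only, with 96 h ratios of −0.32 and −0.52 and a mean of −0.42 (−0.66 on the authors' log ratios). Igfbp3 rose by 0.99 in control (limma adjusted p = 0.00036) and by 0.56 in silenced cells (adjusted p = 0.0051).

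Nt5e (CD73, an ectoenzyme that makes adenosine) fell with time instead. It read 7.92 and 8.22 in control and 7.91 and 8.27 in silenced cells at 24 h, and 6.73 and 6.79 against 6.19 and 6.37 at 96 h. The silenced channels were below the control channels at 96 h alone, with ratios of −0.54 and −0.42 and a mean of −0.48 (−1.50 on the authors' log ratios). Nt5e fell by 1.31 in control (limma adjusted p = 0.00024) and by 1.81 in silenced cells (adjusted p = 6.0e-05).

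Lats2, the Hippo kinase that phosphorylates YAP and is itself a YAP target, also fell. It read 7.95 and 8.13 in control and 8.22 and 7.9996 in silenced cells at 24 h, and 7.48 and 7.56 against 7.33 and 7.24 at 96 h. The 96 h groups of Lats2 were apart on this probe (ratios −0.15 and −0.33, −0.37 as a mean of the authors' log ratios), but the 3 probes of Lats2 ranged from −0.24 to 0.15. Lats2 fell by 0.52 in control (limma adjusted p = 0.014) and by 0.83 in silenced cells (adjusted p = 0.0016). Ajuba, a LIM protein that restrains the Hippo kinases, read 11.32 and 11.31 in control and 11.24 and 11.26 in silenced cells at 24 h, and 10.63 and 10.63 against 10.704 and 10.58 at 96 h. Its 96 h groups overlapped, and Ajuba fell by 0.69 in control (limma adjusted p = 0.0018) and by 0.60 in silenced cells (adjusted p = 0.0032).

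Amotl2, an angiomotin-like protein that holds YAP at junctions, read 10.002 and 10.007 in control and 9.93 and 9.94 in silenced cells at 24 h, and 9.62 and 9.67 against 9.59 and 9.52 at 96 h. Amotl2 fell by 0.36 in control (limma adjusted p = 0.021) and by 0.38 in silenced cells (adjusted p = 0.016), calls that did not pass on Agilent's processed signals (−0.27 and −0.28). Its silenced channels were below the control channels at both times, with ratios of −0.07 on both arrays at 24 h and of −0.03 and −0.15 at 96 h. Nuak2, a kinase that raises myosin activity, read 7.88 and 7.96 in control and 7.95 and 7.97 in silenced cells at 24 h, and 8.59 and 8.55 against 8.82 and 8.73 at 96 h. It was the other gene counted as higher at 96 h, with ratios of 0.23 and 0.18, and rose by 0.65 in control (limma adjusted p = 0.0011) and by 0.81 in silenced cells (adjusted p = 0.00037).

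Ptpn14, a phosphatase that restrains YAP, read 8.28 and 8.47 in control and 8.37 and 8.39 in silenced cells at 24 h, and 8.81 and 8.85 against 8.80 and 8.71 at 96 h. Ptpn14 rose by 0.46 in control (limma adjusted p = 0.0063) and by 0.38 in silenced cells (adjusted p = 0.014), and its 96 h ratio ranged over its probes from −0.08 to 0.15. Axl, a receptor tyrosine kinase, passed in no comparison, with 96 h ratios of 0.03 on both arrays.

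The factors themselves moved little. Srf read 9.84 and 9.90 in control and 9.76 and 10.01 in silenced cells at 24 h, and 9.68 and 9.65 against 9.53 and 9.60 at 96 h. Its 96 h ratios were −0.15 and −0.05, and its change with time was −0.20 in control cells, which did not pass (limma adjusted p = 0.16), and a fall by 0.32 in silenced cells (adjusted p = 0.040), a call lost with a normexp offset of 16 (−0.34). The control change of Srf passed with a replicate block added (−0.20) and without 24 h replicate 1 (−0.26). Yap1 was among the 16 genes counted as lower at 96 h, but its arrays had opposite signs (0.12 and −0.50). Wwtr1 (TAZ) had 96 h ratios of 0.20 and 0.15, and Tead1, the DNA-binding partner of both, −0.19 and −0.01, and neither was a call. Yap1, Wwtr1 and Tead1 did not pass in either time course, with changes from −0.23 to 0.27.

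The 24 h means do not use the 96 h ratios that chose the list, but their SE and p-values come from a fit shared by both times. None of the 35 genes passed in limma, and 3 had an unadjusted p under 0.05 (Ccn2, Lima1 and Pdlim4), while 85 of all genes passed (0.391%) and 1676 had an unadjusted p under 0.05 (7.7%). The 24 h log2 ratios ran from −0.13 for Ccn1 to 0.17 for Lima1, with a median of 0.02 against 0.00 for all genes and an SE of 0.062 to 0.070. The lowest adjusted p was 0.49, for Ccn2. Of the 35 genes 8 were above 0 on both arrays and 5 below 0 on both, against 19.4% and 18.6% of all genes. Tagln, with the lowest 96 h ratio, had 24 h ratios of 0.09 and −0.08, and Cnn1 of −0.06 and 0.00.

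Of 13 genes with more than 1 probe above background, 11 had the same sign on all probes at 96 h (not Lats2 and Ptpn14) and 11 the same sign for the control time course (not Acta2 and Flna). The second probes of Tagln, Tpm1, Tpm2 and Pdlim7 read lower in silenced cells at 96 h as the tested ones did, at −1.38, −0.45, −0.43 and −0.21.

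**Figure D4:**
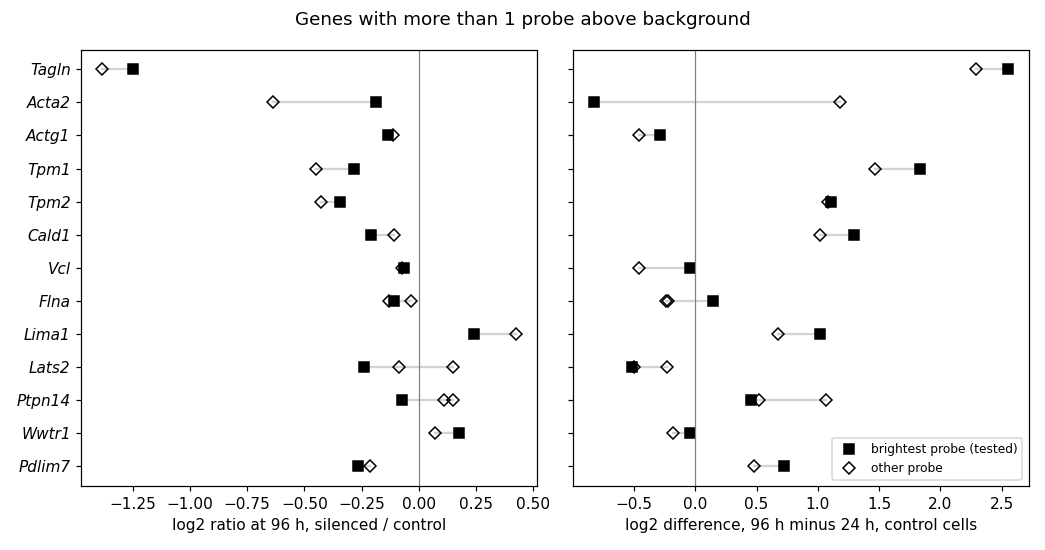
Each gene with more than 1 probe above background (y axis), with the log2 ratio at 96 h, silenced over control (left) and its log2 change from 24 h to 96 h in control cells (right); squares are the tested, brightest probes and diamonds the others. The probes of Tagln lie at −1.25 and −1.38 on the left, and those of Acta2 are split on the right, at −0.83 and 1.18.

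Other genes of these pathways, from lists drawn up by role with earlier results of these data known, were read in the same fits. At 24 h none of the 89 genes tested in the 5 lists passed in limma, and 3 had an unadjusted p under 0.05. Their 96 h medians, in the order described here, were 0.03, −0.03, −0.07, −0.02 and −0.02, against 0.00 for all genes. Of all genes tested, 6.68% were higher and 6.86% lower at 96 h (13.5% in all), and with time 19.4% rose and 16.8% fell in control cells and 19.6% and 17.6% in silenced cells. Among 13 SRF cofactors and other smooth muscle genes none passed in limma at 96 h (2 at an unadjusted p under 0.05), with ratios from −0.11 to 0.15. The late smooth muscle genes Myh11 and Smtn (−0.07 and 0.08) and the cofactors Mrtfa, Mrtfb and Myocd (0.03, −0.01 and 0.00) were in that range. Myh11 and Myocd were dim, with group means of 6.31 to 6.39 and 6.15 to 6.26. The processing pulls the ratios of dim probes towards 0, so these 2 values cannot show whether the genes changed. With time 5 of the 13 rose and 4 fell in each culture, led by Ldb3, a Z-disc protein (1.51 in control and 1.61 in silenced cells), Lmod1, an actin nucleator of smooth muscle (0.80 and 0.79), and Csrp1, a LIM protein (0.66 and 0.55). Smtn (smoothelin) fell by 0.53 and 0.38. The 96 h ratios of Tagln and Cnn1, also smooth muscle genes, lay below that range. Their own list was selected on these ratios, so no result is read from this.

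Among 25 genes of actin assembly and contractility, 1 was higher and 3 lower at 96 h, against 13.5% of all genes. These were Rock1, a kinase that activates myosin II (0.25, with arrays at −0.06 and 0.57), Tpm3 (−0.25), the filament-severing protein Cfl1 (−0.24) and Rhoc (−0.21). With time 4 rose and 6 fell in control cells and 5 rose and 9 fell in silenced cells, against 36.2% and 37.2% of all genes in either direction, led by Tmsb4x, which sequesters actin monomers (−1.53 and −1.50), Pfn2, a profilin (0.88 and 0.91), Pfn1, the other profilin (−0.70 and −0.55), and the filament-capping gene Capzb (0.70 and 0.78). Among 22 focal adhesion and crosslinking genes 2 were higher and 5 lower at 96 h, among them the actin crosslinker Flnc (−0.40), Parvb, a parvin (0.27), and Limd1, a LIM relative of Ajuba (−0.27). In control cells 6 of the 22 rose and 3 fell, and in silenced cells 2 rose and 2 fell; Parva rose by 0.68 and 0.59 and Lpp, a zyxin relative, by 0.55 and 0.46. Flnc fell by 0.62 in silenced cells, with −0.18 in control cells that did not pass.

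Of 13 Hippo kinases and YAP partners none was higher and 2 were lower at 96 h, against 13.5% of all genes. Amot (angiomotin, which ties YAP to actin and junctions) had ratios of −0.64 and −0.63, and the kinase Stk4 −0.23 and −0.22. Amot also rose by 2.12 in control and by 1.52 in silenced cells, while Tead2 rose by 0.77 and 0.68 and Nf2 (merlin) fell by 0.61 and 0.46. Stk4 fell by 0.60 in silenced cells, with −0.28 in control cells that did not pass. With time 4 of the 13 rose and 3 fell in control cells, and 3 rose and 4 fell in silenced cells, against 36.2% and 37.2% of all genes. Of 16 other YAP-responsive genes 2 were higher and 2 lower at 96 h. Gadd45b, a stress gene, was higher (0.41), as was Fgf1 (0.23), and Thbs1 (thrombospondin 1) and Fjx1 were lower (−0.30 and −0.22). With time 4 of the 16 rose and 3 fell in control cells and 3 rose and 4 fell in silenced cells, with Fjx1 falling by 1.62 and 1.78, Gadd45b rising by 1.25 and 1.59 and Arhgef17 by 0.77 and 0.81.

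Markers of the cell types that use these genes were read beside them, where 6.68% of all genes were higher and 6.86% lower at 96 h. Of 8 fibroblast markers tested, 2 were higher and 4 lower in silenced cells at 96 h, among them Cxcl12 (−0.71), Dcn (−0.44) and Col1a2 (−0.35) on the low side and Fbln2 (0.47) and Pdgfrb (0.41) on the high side. Linear signals were summed over all 12 fibroblast markers on the array, tested or not. The sum was 2186 to 2288 in control and 2189 to 2271 in silenced cells at 24 h. At 96 h it was 3395 to 3690 in control and 3249 to 3298 in silenced cells. Col3a1, Lum, Postn and Fap, also on the fibroblast list, were not well above background in any group. Of 5 contractile smooth muscle markers tested none passed in limma at 96 h (0 at an unadjusted p under 0.05). Myh11 and Myocd, both dim, were among them. With the untested Mylk included, the 96 h sum of 6 markers was 1229 to 1318 in control and 1317 to 1324 in silenced cells. Of 10 pluripotency markers all were well above background in every group. At 96 h 6 were counted as higher in silenced cells (Esrrb 0.37, Sox2 0.36 and Zfp42 0.30 among them). They include Dppa5a, whose arrays had opposite signs (−0.84 and 1.26). Pou5f1 was counted as lower through replicate 2 (arrays at 0.01 and −2.11), and no marker of this list was lower on both arrays. At 24 h Pou5f1 was counted as higher (0.68, with arrays at 1.58 and −0.21). Endoderm markers gave 2 higher of 8 (Cubn 1.05 and Amn 0.29), endothelial markers 3 higher of 5 and cardiac markers 2 higher and 1 lower of 8. What part these cell types had in the 96 h levels of the actin, SRF and YAP genes was not tested.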

How the data were processed

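Total RNA (200 ng) was labelled with a low input kit, per the labels' protocols. Per the file headers, the scans were extracted by Feature Extraction version 10.7.1.1. The submitters' processing notes also list limma, with its version not given. Signals of spots and of their local background are deposited as intensity in arbitrary units. Beside them stands the authors' log10 ratio, red (Cy5) over green (Cy3). A table of the series has log10 values that match it within 4.97e-06, turned so that silenced cells are the numerator; its columns have a median of 0. Genome build and annotation of the probes were not used for coordinates.

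Median spot and background signals were read in R 4.3.3 and analysed with limma 3.58.1: normexp with an offset of 50, which pulls the ratios of dim probes towards 0, loess within arrays with control spots at weight 0, spots of a probe averaged, and probes kept if well above background on both arrays of at least 1 RNA group (28088 of 41174). Symbols came from the probes' RefSeq accessions, matched without versions, which named 24375 probes, and the brightest probe of a gene was tested. Log2 ratios were fitted with a mean per time and a dye term. Replicate 1 and replicate 2 have opposite dyes at both times, which makes the dye term the replicate block too; same-numbered arrays deviated together (correlation 0.70 over 21759 genes), which cannot be told apart from dye. The dye term leaves 1 residual degree of freedom per gene, with 35.4 prior ones. The SE of a ratio therefore comes mostly from the spread shared over all genes. Pou5f1 had an SE of 0.065 at 96 h, with arrays at 0.01 and −2.11. Time courses were fitted on single channels with lmscFit after Aquantile (group and dye terms; the 2 channels of a spot correlated at 0.896). Adjusted p-values are Benjamini-Hochberg over 21759 genes or transcripts, two-sided, with a threshold of 0.05. On simulated data the 96 h fit found 45 of 100 genes changed by 0.25 and 100 of 100 changed by 1 on the log2 scale, with 11 false calls. The control time course found 0 and 74 of 100, with 1 false call, so in that setting it called few small changes. Its channels were simulated with a correlation of 0.511, which the fit took as 0.907. These shares may therefore not hold for the arrays. The spread in the 96 h simulation was drawn from the fit's own model, with independent noise. Its counts therefore cannot show how many calls on the arrays are false. Figures were drawn with matplotlib 3.10.9.

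The members and gene lists were chosen with earlier results of these data known. All values are printed for members whose estimate reached 0.3 in size in any comparison, and of each pathway list the up to 3 largest calls per comparison; others named were chosen after their values were seen. Some genes of the pathway lists are counted but not reported here by name.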

Additional observations from a re-analysis of the deposited data

Results flagged for a closer look

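For 2 genes the silenced to control ratio was above 0 on both arrays at 24 h and below 0 on both at 96 h, with a mean of at least 0.1 in size at each time. Ccn2 had a log2 ratio of 0.15 at 24 h and −0.72 at 96 h, and Tpm1 of 0.11 and −0.28. The difference between the times was not tested, since the 96 h ratios were known when the genes were listed. Neither 24 h ratio passed in limma (adjusted p = 0.49 and 0.78).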

How the results depend on the processing

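Of the 27 genes given in full, estimates that were no calls changed sign for 17 at 24 h and 4 at 96 h (Actg2, Fhl1, Ajuba and Myh9) when an array was left out, and for 4 and 1 (Ajuba) with the authors' log ratios. No limma call of the 27 changed sign on its tested probe. Yap1, counted as lower at 96 h, is not among the 27, and its 96 h arrays had opposite signs (0.12 and −0.50). None of the 35 genes passed at 24 h under any alternative run, and the 3 at an unadjusted p under 0.05 became 0 to 5 (5 counting every probe). The time courses had 24 to 30 calls among these genes in control and 25 to 30 in silenced cells, within 1.5 times of those reported. At 96 h the count of 18 became 9 with a normexp offset of 16, 4 without the replicate block and 0 with the authors' log ratios (16 at an unadjusted p under 0.05), and ranged from 2 to 4 when an array was left out. Over all genes, the 85 calls at 24 h became 42 with median centring and 0 with an offset of 16, without the replicate block, with the authors' ratios or without any 1 array (1618, 216, 1573 and 191 to 292 at an unadjusted p under 0.05). The 2946 calls at 96 h became 1798 with median centring in place of loess (1126 higher and 672 lower), 1054 with the lower offset, 106 without the replicate block, 0 with the authors' ratios (3848 at an unadjusted p under 0.05) and 29 to 114 when an array was left out. A replicate block added to the time courses gave 12353 calls in control and 12556 in silenced cells over all genes, and 30 and 28 of these genes. An intraspot correlation from mean squares (0.511), chosen after seeing the data, gave 28 and 27. Leave-one-out channel fits kept the correlation of all arrays. Ratio fits that left an array out also lacked the dye term, which is the replicate block. Fewer arrays and the missing term cannot be told apart in those fits. The causes were not tested.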
